A study of Homo sapiens with 6 samples.

Results

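The nucleolar ribosome assembly factors are 39 genes whose products transcribe, modify, cut and fold ribosomal RNA and join it with ribosomal proteins. They were taken by symbol from the 11844 genes of the deposited gene table, where all 39 are listed, and 113 of the 29964 listed transcripts belong to them. RNA was measured in C4-2B, an established line of human prostate cancer cells. Its stable sublines, grown in RPMI1640 with FBS, carried either the pcDNA 3.1 vector alone (3 libraries, called empty vector) or pcDNA 3.1 with LINC00888, a long noncoding RNA, expressed constitutively (3 libraries). The labels do not say how many sublines or clones stand behind a group, or whether a group's 3 libraries are separate cultures. The p-values therefore measure the spread between these libraries, and any other difference between the sublines cannot be told apart from that of LINC00888. In the RNA used, LINC00888 was found raised by quantitative PCR, as the labels report, and its FPKM was not analysed here.

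Ribosomes are built in the nucleolus. RNA polymerase I makes a long precursor there, small nucleolar RNPs (snoRNPs, protein complexes led by a guide RNA) methylate and pseudouridylate it, and separate sets of factors assemble the small and the large subunit around the cut pieces. Many of these genes are known to carry binding sites for MYC, and cells that grow fast have large nucleoli.

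Values are FPKM, fragments per length of the model and per sequenced fragments mapped, which the authors computed for each library on its own. Listed genes summed to 211148 to 217637 FPKM in a library, and depth is unknown. Mitochondrial genes made up 17.6%, 17.7% and 18.35% of that sum in the empty vector libraries and a higher share, 18.38%, 18.9% and 19.7%, with LINC00888. Across genes, log2 values correlated at 0.985 within groups and at 0.977 to 0.98 between them. All 9 luminal prostate markers looked for were listed, with a summed FPKM of 1287 to 1303 in the empty vector libraries and 1320 to 1339 with LINC00888. Of the 9, 4 fell and 3 rose with LINC00888 in the test described next. Only 2 of 7 fibroblast, 1 of 5 leukocyte and 1 of 4 endothelial markers were listed, and those of each type summed to under 4 FPKM in every library, with ranges that overlapped between the groups, and 1 of the fibroblast markers, PDGFRB, rose. The part of these differences in the results was not tested.

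With LINC00888, 13 of the 39 assembly factors fell and 0 rose, where 5.46% of the 11726 genes tested fell and 8.02% rose (limma, Benjamini-Hochberg adjusted p under 0.05 over all genes). The 13 are RIOX1, RRS1, NOP56, NOC4L, RRP9, DDX21, WDR43, BOP1, DKC1, NIP7, MRTO4, FBL and BYSL. At an unadjusted p under 0.05, 21 of the 39 were lower and 0 higher, where 12.1% of all genes were lower and 19.1% higher. The changes were small apart from RIOX1: over the 39 the median log2 fold change was -0.15, against 0.03 over all genes. The estimate was lower in 34 of the 39 and in 42.9% of all genes. In 22 of the 39 all LINC00888 libraries lay below all empty vector libraries, which held for 14.8% of all genes, and in 1, NHP2, they lay above, which held for 23.5%. RIOX1 passed the filter on low values (FPKM of at least 0.5 in 3 libraries) only through the empty vector group, so it stands apart here. Of the other 38, which reached that value in all 6 libraries, 12 fell, with a median of -0.15 and a range from -0.34 to 0.13.

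**Figure D1:**
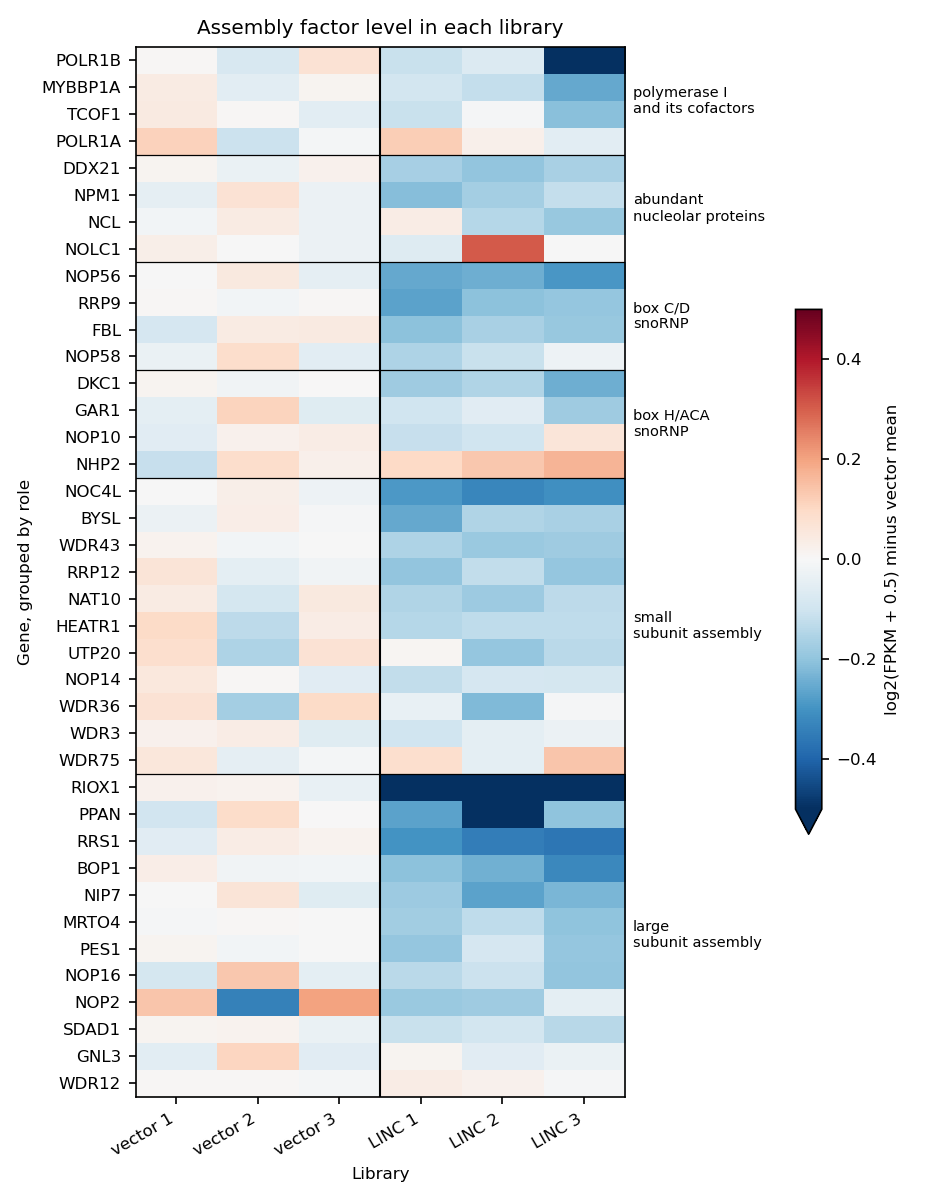
Colour gives log2(FPKM + 0.5) of each gene (rows, grouped by role) in each library (columns) minus the mean of the empty vector libraries. The scale ends at -0.5 and 0.5, beyond which RIOX1 in all LINC00888 libraries and single libraries of PPAN and POLR1B lie, and most rows are blue in all 3 LINC00888 columns.

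The number of calls rested on having all 6 libraries. It was 4 without empty vector library 1, 5 without library 2 and 3 without library 3, and 4, 4 and 5 without LINC00888 library 1, 2 and 3, where 2.82%, 2.77%, 2.18%, 2.17%, 2.52% and 2.63% of all genes fell. The median stayed between -0.17 and -0.14. RRS1, NOP56 and NOC4L were called in each of the 6, with adjusted p-values up to 0.0313, 0.046 and 0.048. RRP9 was lost except without LINC00888 library 3 or empty vector library 2 (up to 0.0635), DDX21 except without empty vector library 2 (up to 0.0762) and FBL except without empty vector library 1 (up to 0.128). WDR43 (up to 0.0762), BOP1 (0.0705), DKC1 (0.0846), NIP7 (0.0976), MRTO4 (0.118) and BYSL (0.129) were lost without each of the 6. RIOX1 could not be tested with an empty vector library left out, and was called without each LINC00888 library (up to 0.0118). The latter adds nothing, since RIOX1 passed the filter only through the empty vector group.

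Fold change fell with expression level across all genes, from a median log2 value of 0.11 in the lowest of 10 equal bins of genes to -0.05 in the highest, and 30 of the 39 assembly factors stood in bins 7 to 10. In those 4690 genes the median log2 fold change was -0.02 and 9.62% fell. The share that fell rose with level, at 5.46%, 6.48%, 10.2% and 16.3% in bins 7, 8, 9 and 10. These bins held 5, 6, 9 and 10 assembly factors. Quantile normalization and cyclic loess gave 12 and 11 lower assembly factors and a median of -0.15 and -0.14. Both ended the calls of DDX21, FBL and BYSL. Whether the trend with level remained under these normalizations was not tested. Under either, 1 assembly factor was higher, NHP2 (adjusted p = 0.0356 and 0.043, limma). Genes lower over the whole table were 5.53% and 5.71% under these, 7.2% under median ratio scaling, 5.47% and 5.46% with pseudocounts of 0.1 and 1, 5.45% without the filter, 5.73% with it at FPKM 1, 4.5% without trend and robust, and 1.71% with the replicate block. Median ratio scaling turned the balance over all genes, from 640 lower and 941 higher to 844 lower and 750 higher.

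**Figure D2:**
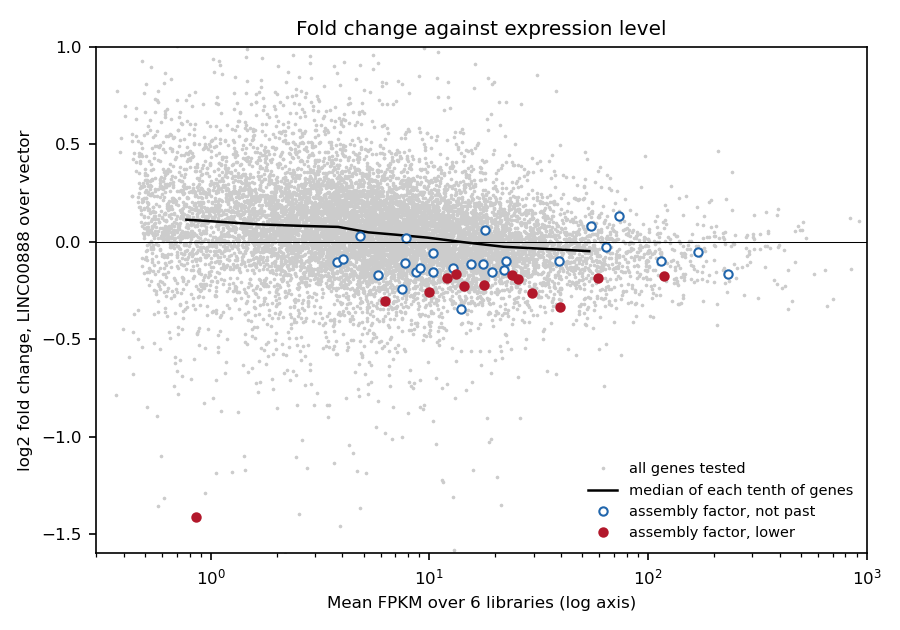
The vertical axis is the log2 fold change of LINC00888 over empty vector and the horizontal axis the mean FPKM on a log scale. Grey points are all genes tested within the axis limits, the line joins the medians of 10 equal bins of genes from 0.11 to -0.05, and 34 of the 39 assembly factors (circles, filled where adjusted p was under 0.05) lie below 0.

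The promoters of the assembly factors often held CACGTG, the E-box that MYC with MAX binds, which reads the same on both strands. RefSeq windows of 300 bases, from 250 before to 50 after the gene start (GRCh38.p14), were found for 32 of the 39 by symbol. The E-box stood in 16 of these 32 genes, or 50%, against 13.3% of the 9161 listed genes with a window and 7.26% of all 35116 windows. It stood in 6 of the 10 fallen genes with a window and in 10 of the other 22. A match is a description of letters and shows no binding. The stretches from 100 bases before to 30 after the start are shown for 5 fallen genes, since their E-box, in capitals, lies close to the start. They are MRTO4 (chr1:19251705-19251834, plus strand), WDR43 (chr2:28894567-28894696, plus strand), RRP9 (chr3:51941875-51942004, minus strand), DDX21 (chr10:68956547-68956676, plus strand) and FBL (chr19:39846350-39846479, minus strand), each written 5′ to 3′ along the gene.
MRTO4: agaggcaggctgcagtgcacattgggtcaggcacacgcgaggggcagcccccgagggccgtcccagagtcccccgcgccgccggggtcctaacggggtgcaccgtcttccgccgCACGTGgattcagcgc
WDR43: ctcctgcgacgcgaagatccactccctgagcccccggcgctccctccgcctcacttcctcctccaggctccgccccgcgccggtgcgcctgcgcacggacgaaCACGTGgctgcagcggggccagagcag
RRP9: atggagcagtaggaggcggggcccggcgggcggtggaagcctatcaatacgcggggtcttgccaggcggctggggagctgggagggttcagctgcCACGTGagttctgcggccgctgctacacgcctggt
DDX21: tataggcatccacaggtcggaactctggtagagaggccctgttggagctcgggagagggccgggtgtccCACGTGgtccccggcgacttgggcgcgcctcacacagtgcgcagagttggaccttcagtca
FBL: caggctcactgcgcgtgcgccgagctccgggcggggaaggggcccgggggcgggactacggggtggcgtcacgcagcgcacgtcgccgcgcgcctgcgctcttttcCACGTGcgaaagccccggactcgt
The E-box begins at position 15 after the start in MRTO4, 7 in FBL and 4 in WDR43, and 5 and 31 bases before it in RRP9 and DDX21. In BYSL it begins at position 29 and runs past the stretch shown for the others. MYC itself, chosen after its values were seen, was listed at 48.3, 3.05 and 3.64 FPKM in the empty vector libraries and 39.3, 3.76 and 3.95 with LINC00888. The median of the assembly factors' log2 values against the empty vector mean stood at 0.014, 0.006 and -0.0088 for empty vector, then at -0.15, -0.13 and -0.18 for LINC00888. Whether MYC has a part in any result was not tested.

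None of the 4 genes of RNA polymerase I and its cofactors passed the threshold, and 1 was lower at an unadjusted p under 0.05. Over all genes, 5.46% fell and 12.1% were lower at that unadjusted p. MYBBP1A, a nucleolar protein that binds MYB and other transcription factors, had the highest level of the 4, at 9.44, 8.82 and 9.25 FPKM in the empty vector libraries and 8.57, 8.40 and 7.60 with LINC00888. Its groups did not overlap (log2 fold change -0.16, adjusted p = 0.138, limma). The second largest polymerase subunit, POLR1B, was listed at 8.14, 7.63 and 8.54 and at 7.46, 7.70 and 5.40 FPKM, so that its lower mean came mainly from LINC00888 library 3. For the largest subunit, POLR1A, the means were 4.74 ± 0.40 and 4.85 ± 0.33 FPKM (SD, n = 3) and the groups overlapped. TCOF1, or treacle, a cofactor of polymerase I, had means of 8.07 ± 0.29 and 7.46 ± 0.55 FPKM (SD, n = 3).

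Of 4 abundant nucleolar proteins 1 fell and 2 did not overlap between groups, both lower, against 5.46% and 14.8% of all genes. All 4 stand in bin 10 of expression level, where 16.3% of genes fell. The RNA helicase DDX21 fell from 127.2, 122.8 and 127.6 FPKM in the empty vector libraries to 112.1, 109.7 and 112.4 with LINC00888 (log2 fold change -0.17, SE 0.03, adjusted p = 0.0203, limma). The groups were set apart by more than the range within either. Quantile normalization and cyclic loess ended the call of DDX21 (adjusted p = 0.0734 and 0.141). NPM1, or nucleophosmin, the most abundant of the 39, was listed at 237, 257 and 239.7 FPKM and at 211, 217 and 225 FPKM. Its libraries did not overlap either, but it missed the threshold (log2 fold change -0.17, adjusted p = 0.0584). Nucleolin, NCL, overlapped between the groups, with 118, 122 and 116 against 122, 107 and 104 FPKM. For NOLC1, a chaperone of snoRNPs, LINC00888 library 2 stood above the rest at 65.8 FPKM, and the other 5 libraries lay between 50.7 and 54.2.

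Box C/D snoRNPs, most of which methylate the sugar of ribosomal RNA, had 3 of 4 members lower, against 5.46% of all genes. The 4 take in the U3 protein RRP9 but not the core protein SNU13, which is counted with the other factors below. SNU13 overlapped between the groups (adjusted p = 0.437, limma). NOP56, a core scaffold protein (ENSG00000101361.16_3, chromosome 20 at 2632791 to 2639039 in the deposited table, whose build is not stated), was listed at 32.1, 33.3 and 31.1 FPKM in the empty vector libraries and 26.9, 27.1 and 26.2 with LINC00888. That is a mean 17.0% lower, with a log2 fold change of -0.26 (SE 0.04, adjusted p = 0.012, limma). RRP9, which binds the U3 snoRNA that guides the first cuts, went from 19.3, 19.0 and 19.3 to 15.9, 16.6 and 16.7 FPKM (log2 fold change -0.22, SE 0.04, adjusted p = 0.0173). The methyltransferase itself, fibrillarin or FBL, went from 59.2, 64.6 and 64.7 to 54.4, 56.1 and 55.0 FPKM (-0.19, SE 0.04, adjusted p = 0.0448). Empty vector library 1 was the lowest of its group for FBL and still above all LINC00888 libraries. The paralogue and partner of NOP56, NOP58, overlapped between the groups, at 39.5, 42.9 and 39.0 against 36.3, 37.3 and 39.7 FPKM (adjusted p = 0.278).

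Box H/ACA snoRNPs, which turn uridine into pseudouridine and also bind telomerase RNA, share 4 core proteins. Of these 1 fell, against 5.46% of all genes. The pseudouridine synthase DKC1, or dyskerin, fell from 27.5, 26.9 and 27.2 FPKM to 24.0, 24.5 and 22.9 (log2 fold change -0.19, SE 0.04, adjusted p = 0.0278, limma). NHP2, a protein of the same core, was listed at 64.9, 74.8 and 71.4 FPKM in the empty vector libraries and 75.3, 77.1 and 79.1 with LINC00888. All LINC00888 libraries of NHP2 were thus above the empty vector ones, the nearest by less than the range within either group, and the call depended on the scaling as given above (adjusted p = 0.171 without it). NOP10, the smallest core protein and the most abundant of the 4, overlapped between groups, at 165, 174.5 and 176 against 159, 161 and 179.6 FPKM. GAR1 overlapped as well, with means of 16.2 ± 1.14 and 14.9 ± 0.65 FPKM (SD, n = 3).

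**Figure D3:**
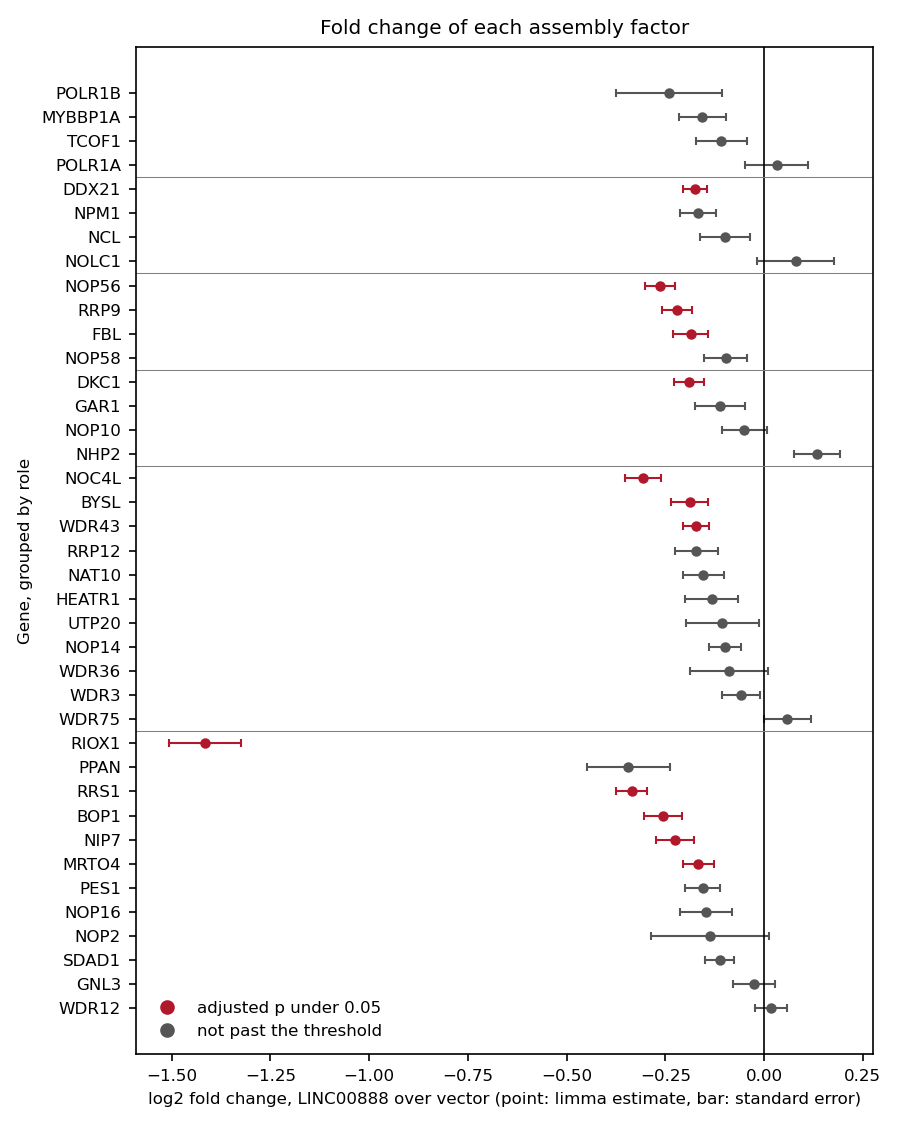
Points give the limma log2 fold change of LINC00888 over empty vector for each of the 39 genes, grouped by role in the same order as the colour map, and bars its standard error. Red marks the 13 genes past the threshold, RIOX1 lies at -1.42, and 5 estimates, NHP2 the highest at 0.13, are above 0.

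Among 11 factors of small subunit assembly 3 fell, 10 had a lower estimate and 6 did not overlap between groups, all 6 lower. Over all genes these shares were 5.46%, 42.9% and 14.8%. NOC4L, whose yeast relative Noc4 works with Nop14, was listed at 6.94, 7.11 and 6.82 FPKM in the empty vector libraries and 5.61, 5.45 and 5.53 with LINC00888 (ENSG00000184967.6_2, chromosome 12 at 132628993 to 132637018). Its mean was 20.5% lower, with a gap between the groups far wider than the range within either (log2 fold change -0.31, SE 0.05, adjusted p = 0.0123, limma). WDR43, the relative of yeast Utp5, went from 25.7, 25.2 and 25.3 to 22.8, 22.3 and 22.4 FPKM (-0.17, SE 0.03, adjusted p = 0.0232). BYSL, or bystin, the relative of yeast Enp1, went from 12.6, 13.2 and 12.8 to 10.7, 11.6 and 11.5 FPKM (adjusted p = 0.0481). The rest did not pass. RRP12, the RNA acetyltransferase NAT10 and NOP14 did not overlap, with adjusted p-values of 0.0899, 0.105 and 0.157. HEATR1, UTP20, WDR36, WDR3 and WDR75 overlapped, with log2 fold changes from -0.13 (HEATR1) to 0.06 (WDR75). Empty vector library 2 was the lowest of its group for HEATR1 (8.65 against 10.2 and 9.78 FPKM), UTP20 (3.483 against 4.201 and 4.164) and WDR36 (3.65 against 4.42 and 4.50).

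Large subunit assembly had 5 of 12 members lower and 9 without overlap, all 9 lower, against 5.46% and 14.8% of all genes. Both counts take in RIOX1, which passed the filter only through the empty vector group. RRS1, whose yeast relative brings the 5S RNP into the particle, was listed at 42.7, 45.6 and 45.0 FPKM in the empty vector libraries and 36.0, 34.8 and 34.5 with LINC00888 (ENSG00000179041.3_3, chromosome 8 at 67341263 to 67342968). This mean was 21.0% lower, again with a gap wider than the range within either group (log2 fold change -0.34, SE 0.04, adjusted p = 0.00667, limma). BOP1, PES1 and WDR12 form the PeBoW complex, which is needed to process the large subunit RNA, and 1 of the 3 passed. BOP1 went from 11.2, 10.8 and 10.8 to 9.42, 9.17 and 8.63 FPKM (-0.26, SE 0.05, adjusted p = 0.0236). PES1 did not overlap, at 20.6, 20.2 and 20.4 against 17.8, 19.2 and 17.8 FPKM, and missed the threshold (adjusted p = 0.0646). WDR12 overlapped, with means of 7.79 ± 0.053 and 7.89 ± 0.13 FPKM (SD, n = 3). Whether the 3 partners differ from each other in fold change was not tested.

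NIP7 and MRTO4, the relative of yeast Mrt4 that holds the place of a stalk protein, also fell. NIP7 went from 15.5, 16.2 and 14.9 to 13.6, 12.8 and 13.2 FPKM (log2 fold change -0.23, SE 0.05, adjusted p = 0.0328, limma) and MRTO4 from 13.95, 14.08 and 14.01 to 12.37, 12.79 and 12.14 (-0.17, SE 0.04, adjusted p = 0.0409). PPAN, the relative of yeast Ssf1, had the lowest estimate of those that missed the threshold, with 14.7, 16.8 and 15.7 against 13.0, 10.4 and 13.6 FPKM. Its libraries did not overlap, and LINC00888 library 2 was the lowest (log2 fold change -0.34, SE 0.10, adjusted p = 0.0808). NOP16 and SDAD1 did not overlap and did not pass (adjusted p = 0.19 and 0.0939). The RNA methyltransferase NOP2 ranged from 10.4 to 15.4 FPKM among the empty vector libraries, which took in all LINC00888 libraries. GNL3, or nucleostemin, a GTPase of dividing cells and the most abundant of the 12, was listed at 62.2, 69.5 and 61.9 against 65.1, 61.9 and 63.0 FPKM.

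RIOX1, an oxygenase that hydroxylates a histidine of a large subunit protein, moved by far the most of the 39 by its log2 estimate. It was listed at 1.501, 1.493 and 1.418 FPKM in the empty vector libraries and 0.321, 0.223 and 0.179 with LINC00888 (ENSG00000170468.7_2, chromosome 14 at 73957669 to 73960096). The mean was 6.10 times lower, and the log2 fold change with the pseudocount of 0.5 was -1.42 (SE 0.09, adjusted p = 0.00152, limma). RIOX1 passed the filter only through the group where it is high, so that its p adds nothing to the values. It was also the least abundant of the 39. Its listed transcript, RIOX1-201, holds the same values. In GENCODE release 29 it overlaps HEATR4 on the other strand. Whether the counting used strand is not given in the sources used here.

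**Figure D4:**
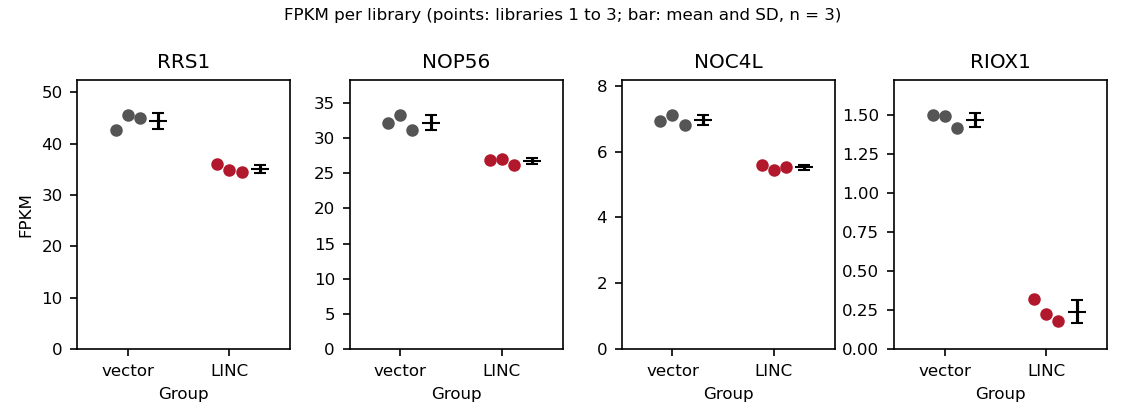
Each panel shows the FPKM of 1 gene, with points for libraries 1 to 3 of a group and a bar for the mean and SD (n = 3), on axes that start at 0. RRS1, NOP56, NOC4L and RIOX1 are lower in all 3 LINC00888 libraries than in any empty vector library.

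At the level of transcripts 2 of 103 tested fell and 1 rose, where 0.212% of the 26941 transcripts tested fell and 0.167% rose, 0.379% in all (limma, adjusted p under 0.05). At an unadjusted p under 0.05 there were 25 of the 103, against 11.1% of all transcripts. The 3 called were RIOX1-201, which like its gene passed the filter only through the empty vector group, and a pair from SDAD1. The yeast relative of SDAD1, Sda1, takes part in large subunit assembly. SDAD1-201 was listed at 20.2, 20.0 and 19.7 FPKM in the empty vector libraries and 4.16, 3.73 and 6.21 with LINC00888 (log2 fold change -2.01, SE 0.19, adjusted p = 0.0309). SDAD1-203 was listed at 0 in all 3 empty vector libraries and at 17.2, 18.4 and 14.4 FPKM with LINC00888 (adjusted p = 0.000966). It passed the filter only through the group where it is high, so that it had to differ, and its p and that of transcript use add nothing to the values. SDAD1-201 thus made up 100% of the listed SDAD1 transcripts in every empty vector library and 19.4%, 16.9% and 30.1% with LINC00888. The gene as a whole missed the threshold, at 18.6, 18.6 and 18.0 against 17.0, 17.2 and 16.7 FPKM (log2 fold change -0.11, adjusted p = 0.0939).

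**Figure D5:**
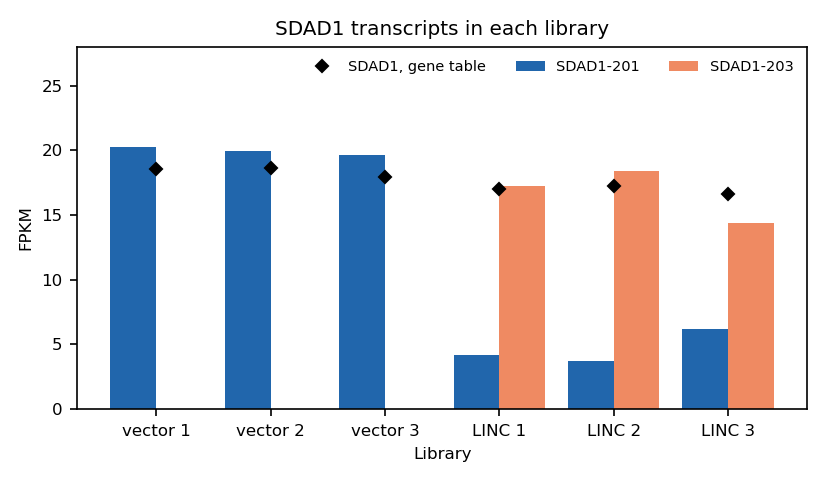
Bars give the FPKM of SDAD1-201 (blue) and SDAD1-203 (orange) in each of the 6 libraries and diamonds that of SDAD1 in the gene table. SDAD1-203 is listed at 0 in the empty vector libraries and is the higher of the pair in all LINC00888 libraries, while the diamonds stay between 16.7 and 18.6 FPKM.

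A test of transcript use, the log2 ratio of a transcript to the gene's other listed transcripts, called 2 of 90 member transcripts from 26 genes, both of them SDAD1 (adjusted p = 0.00378 each, limma). Both calls rest on SDAD1-203, so that they add nothing to its values, as given above. Of the 22163 transcripts in that test 0.113% were called, 0.0587% lower and 0.0541% higher, and 11 of the 90 had an unadjusted p under 0.05, against 4.9% of all. The next smallest p-values belonged to MYBBP1A-202 and WDR43-202 (adjusted p = 0.78 and 0.805). Without any 1 of the LINC00888 libraries SDAD1-203 reached the filter in too few libraries, so neither it nor transcript use could be tested. Without each empty vector library SDAD1-203 and transcript use stayed called (transcript use up to 0.0473). That adds nothing either, since SDAD1-203 was at 0 in all empty vector libraries and passed the filter only through the LINC00888 group. RIOX1-201 missed the threshold without each LINC00888 library (up to 0.173) and could not be tested without any empty vector library. SDAD1-201 stayed past the threshold without LINC00888 library 3 and missed it without each other library (adjusted p up to 0.134). Without empty vector library 2, FBL-206 was called lower (adjusted p = 0.0285) and NOP14-204 was called in transcript use (adjusted p = 0.0462), neither of which was called with all 6 libraries.

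The SDAD1 transcripts differ in an exon. In GENCODE release 29 (GRCh38), SDAD1-201 has 22 exons and SDAD1-203 has 21: the latter skips exon 4, which is 111 bases of coding sequence or 37 codons, without a shift of frame, at chr4:75977646-75977756 on the minus strand. The last exon of SDAD1-203 is also 370 bases shorter. In all SDAD1-201 is 3017 bases long and SDAD1-203 2513, so the models differ in some further bases too. The skipped exon is shown in capitals between the last 30 bases of exon 3 and the first 30 of exon 5, followed by the junction of SDAD1-203.
SDAD1-201: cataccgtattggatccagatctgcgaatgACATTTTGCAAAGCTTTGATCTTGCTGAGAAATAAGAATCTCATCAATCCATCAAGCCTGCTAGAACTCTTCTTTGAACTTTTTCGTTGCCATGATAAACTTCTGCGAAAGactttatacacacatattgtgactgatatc
SDAD1-203: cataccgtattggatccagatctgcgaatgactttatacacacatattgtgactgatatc
Reads across this junction were not among the deposited values, so which part of the models set the values apart was not tested.

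Transcript values were far less even than gene values. In 27 of the 103 member transcripts, from 15 genes, the libraries of 1 group differed by more than 3-fold with the highest at 1 FPKM or more, a share of 26.2% against 29.02% of all tested transcripts. No member gene did so in the gene table. NOP14-204, chosen after its values were seen, was listed at 20.4, 0.76 and 20.9 FPKM in the empty vector libraries and at 0.377, 0.709 and 0 with LINC00888. FBL-206, chosen in the same way, was listed at 39.8, 6.95 and 53.1 and at 4.21, 3.67 and 3.42 FPKM. The SDAD1 pair showed no such jump within a group.

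Several assembly factor genes carry snoRNAs in their introns, so that the same precursor can yield a protein and a guide RNA. By GENCODE release 29, in which 38 of the 39 identifiers were found, 7 hold 25 annotated snoRNAs on their own strand: NOP56, WDR43, DKC1, NCL, NOP58, GNL3 and PPAN. Of the 7, 3 fell, with a median log2 fold change of -0.17. Of the other 31 with a match, 9 fell, with a median of -0.15. The 9 take in RIOX1, which passed the filter only through the empty vector group. Over all genes 5.46% fell, with a median of 0.03. The libraries were selected for polyA, and snoRNAs were not measured. In the same annotation 4 of the 38 overlap another coding gene on their own strand, RRS1 among the fallen, then PPAN, SDAD1 and NOP2, each of which missed the threshold, and how reads were shared between such genes is not given in the sources used here.

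Among 134 further listed identifiers of ribosome assembly genes outside the 39, 15 fell and 1 rose (11.2% lower, against 5.46% of all genes), with a median log2 fold change of -0.06. Of the 134, 93 stood in bins 7 to 10 of expression level, where 9.62% of all genes fell. In large subunit assembly 10 of 48 fell. The RNA helicase DDX27 had means of 11.8 ± 0.16 and 8.33 ± 0.15 FPKM (SD, n = 3) and an adjusted p of 0.00278 (limma), and it was called without each of the 6 libraries too. SBDS, which helps to release EIF6 from the new subunit, went from 48.8 ± 0.66 to 42.0 ± 0.43 and the GTPase GTPBP4 from 31.3 ± 0.79 to 26.3 ± 0.49 FPKM. The GTPase EFL1, the partner of SBDS, was the 1 that rose, from 6.28 ± 0.22 to 7.53 ± 0.13 FPKM (adjusted p = 0.0247), a call kept without empty vector library 1 alone (up to 0.0855). In small subunit assembly 5 of 48 identifiers fell, with EMG1 listed under 2. Among them were KRR1 (11.3 ± 0.24 to 9.09 ± 0.37 FPKM), UTP3 (27.99 ± 0.88 to 22.5 ± 1.30) and LTV1 (30.9 ± 0.76 to 26.3 ± 0.90). Leaving out 1 library ended the calls of KRR1 (without empty vector library 3, adjusted p = 0.0532), UTP3 (without LINC00888 library 1 or 3 or empty vector library 2, up to 0.0624) and LTV1 (without each library but empty vector library 3, up to 0.0613). The count of 15 was 8, 6 and 5 without empty vector library 1, 2 and 3, and 5, 7 and 8 without LINC00888 library 1, 2 and 3.

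Nothing was called among the other polymerase I genes, the snoRNP assembly list (the box C/D core protein SNU13 and assembly chaperones) and the RNA exosome list (its subunits with the cofactors SKIV2L2, C1D and MPHOSPH6 and the separate exonuclease XRN2). In these lists 0 of 13, 0 of 10 and 0 of 15 passed in limma, and 4, 1 and 3 had an unadjusted p under 0.05, against 31.2% of all genes. The medians of their log2 fold changes were 0.05, -0.07 and -0.0038. In polymerase I 5 of the 13 lay higher with LINC00888 in all libraries and 2 lower, and in the exosome list 3 of 15 lay higher and 1 lower, against 23.5% higher and 14.8% lower over all genes.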

How the data were processed

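Values are FPKM computed by the authors, per the file headers, in a gene and a transcript table of 6 libraries (polyA-selected, strand-specific, paired-end, per the labels' protocols). Tools named in the submitters' processing notes are FastQC, cutadapt, HISAT2 and StringTie, with no version. The build named there, GRCm38, is of the mouse, while the identifiers are human. A test on the values showed that every listed gene has a mean FPKM of at least 0.5 in 1 of the groups (smallest 0.500091). No whole-read steps were seen in low values, so depth and counting intervals could not be given.

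Features that reached FPKM 0.5 in 3 or more libraries were compared as log2(FPKM + 0.5), unscaled, in limma 3.58.1 (R 4.3.3, two-sided moderated test, eBayes with trend and robust), and p-values were adjusted by Benjamini-Hochberg over all of them. The pseudocount understates changes of low genes. On simulated data for 11726 genes, 38% of 1.25-fold and 64% of 1.5-fold changes were recovered, with 7 false calls. There, 50 genes were changed at each of the folds 1.25, 1.5, 2 and 3. These are fewer than the 1581 genes called in the data, so the shares recovered need not hold for the data. For 26941 transcripts 2% of 1.5-fold and 32% of 3-fold changes were recovered.

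The members, the lists and the tests were chosen with earlier results of these data known. Every member past the threshold was given by library, with SE and adjusted p for the 12 with the smallest p. The most abundant member of each role was also given by library, up to 8 transcripts past the threshold and 4 by transcript use, and 3 other factors per list and direction. Alternatives were pseudocounts of 0.1 and 1, no filter, a filter at FPKM 1, median ratio scaling, quantile normalization, cyclic loess, eBayes without trend and robust, a replicate block, and leaving out each library.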

Additional observations from a re-analysis of the deposited data

How the results depend on the processing

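Pseudocounts of 0.1 and 1, no filter and the filter at FPKM 1 left 13 assembly factors lower and 0 higher. Median ratio scaling gave 15 lower, the 13 among them, and eBayes without trend and robust gave 10. Quantile normalization and cyclic loess gave 12 and 11 lower and 1 higher each, and ended the calls of DDX21, FBL and BYSL. Their counts of 12 and 11 thus each take in at least 1 assembly factor outside the 13. The median log2 fold change of the 39 moved from -0.15 to -0.19 under median ratio scaling. Member transcripts lower went from 2 to 1 with the pseudocount of 0.1, with no filter and with the filter at FPKM 1, each time through RIOX1-201 (adjusted p = 0.0658, 0.054 and 0.0875, limma). Other assembly factors lower rose from 15 to 25 under median ratio scaling.

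With the replicate block, 3 assembly factors (RIOX1, RRS1 and NOP56) and 2 other factors were lower, 0 other factors were higher, 0 member transcripts were lower or higher and 0 were called in use, while 200 genes in all were lower and 229 higher. The labels give the numbers no meaning. Deviations of same-numbered libraries from the group means correlated at 0.038, 0.022 and -0.035 across genes, and not every library correlated best with its own number, although MYC was high in library 1 of both groups.

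Leaving out 1 library gave between 3 and 5 assembly factors lower, 0 to 1 member transcripts lower, 0 to 1 higher, 0 to 3 called in use, 5 to 8 other factors lower, 0 to 1 higher, and 252 to 329 genes lower and 284 to 487 higher in all.

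Of the single estimates, those that changed sign had all missed the threshold, and did so under the alternative too. NOP10 was at 0.0046 under quantile normalization and 0.0238 under cyclic loess, GNL3 at 0.0373 and 0.0324, WDR12 at -0.0091 and -0.0135 and POLR1A at -0.0192 and -0.0276. WDR12 was at -0.0152 under median ratio scaling. Without empty vector library 2 GNL3 was at 0.0289 and POLR1A at -0.0206, without LINC00888 library 1 POLR1A was at -0.0136, and without LINC00888 library 2 NOLC1 was at -0.0332. Over the 6 fits that each left out 1 library, NOLC1 ran from -0.0332 to 0.1526, GNL3 from -0.0542 to 0.0289 and POLR1A from -0.0206 to 0.0893. Where no cause is named, it was not tested. The unknown depth and the 3 libraries per group limit what small changes could be called.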
